A study of Canis lupus familiaris with 31 samples.

Results

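Septins are GTP-binding cytoskeletal proteins that join end to end into rods and filaments beneath membranes and beside actin. A rod takes its subunits from 4 groups, named after septin 2, septin 6, septin 7 and septin 3, and members of a group can replace each other at the same place in the rod. Septins act in cell division and in secretion, and septin 5, which is abundant in neurons and platelets, binds syntaxins and takes part in the release of granules. The rows described here are the septin genes of canine whole blood. They were chosen by name, and 12 of the 32704 rows of the table of counts met the rule.

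In that table the septin symbols had been turned into the day numbers with which spreadsheets store dates. A row was taken when its symbol was the number of one of the first 14 days of September 2021, or when it began with SEPT. The 12 rows carried the numbers of days 1 to 12, up to 44451 (septin 12), each number stood on 1 row, days 13 and 14 stood on 0 rows, and 0 rows began with SEPT. A further 13 rows carried day numbers of March, with 11 distinct numbers, and these were not analysed here. The RefSeq dog gene table used here lists 13 septin genes and pairs 0 of its rows with an Ensembl identifier, so each septin was named from its day number alone. Septin 5 is the row 44444, with the Ensembl identifier ENSCAFG00000014533, and septin 2 is the row 44441, ENSCAFG00000012960. The family was taken up because the higher level of septin 5 in the HTG cases was already known from these counts. Its difference between cases and controls is therefore a description without a test, while the other 11 septins came in by name.

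The counts came from 31 Miniature Schnauzers, a breed prone to spontaneous high triglycerides in the blood (HTG). There were 13 dogs with HTG (5 females and 8 males) and 18 controls with normal fasting triglycerides (8 females and 10 males), and whole-blood RNA of each dog was sequenced as 1 library. All were older client-owned pets on their own diets, the males were castrated and nearly all of the females spayed, and neither group received a study treatment. The groups were not matched for age or sex, and all dogs were of 1 breed.

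Counts on genes ranged from 14524659 to 41533599 per dog, and the 12 septin rows together took 0.125% to 0.178% of them. All 12 septins were among the 13918 genes that passed the filter on low counts. Levels are given as CPM, counts scaled to a common library size, which are not divided by gene length, so they compare dogs but not septins with each other. Over 345 rows of small non-coding RNA, 10 dogs (5 cases and 5 controls) had a mean between 1.76 and 2.44 log2 CPM, and the other 21 lay between 0.699 and 1.45. The line was drawn at the widest gap that left at least 5 dogs on each side. The study names an earlier pilot batch of 10 samples (5 cases and 5 controls), visible in its principal components and held as a covariate in its model. The labels do not give the dogs of that batch, so whether they are the small-RNA-high dogs was not tested. Values in the 10 small-RNA-high and the 21 small-RNA-low dogs therefore stand beside the main results. The markers of blood were present: 10 of 12 platelet, 10 of 10 T cell, 8 of 8 B cell and 6 of 8 neutrophil genes passed the filter.

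Septin 5, a member of the septin 2 group, was higher in the HTG cases. It had 309 to 887 counts per dog in the cases and 147 to 810 in the controls. In the cases its lowest, median and highest levels were 16.7, 28.8 and 40.0 CPM (27.5 ± 7.59, SD, n = 13). In the controls they were 6.42, 17.3 and 28.4 CPM (16.4 ± 5.89, SD, n = 18). All 18 controls lay below the median case, and 12 of 13 cases exceeded the median control. The groups still overlapped, since case_03 and case_13 were the lowest cases at 16.7 and 18.0 CPM and control_03 reached 28.4 CPM. Without control_03 the highest control was control_09 with 22.2 CPM. The log2 fold change was 0.75 (SE 0.17), a fold of 1.68. It was 0.54 (SE 0.22) among the small-RNA-high dogs, 0.82 (SE 0.22) among the small-RNA-low dogs and 0.49 (SE 0.17) in a fit that also held the platelet marker score described below.

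**Figure D1:**
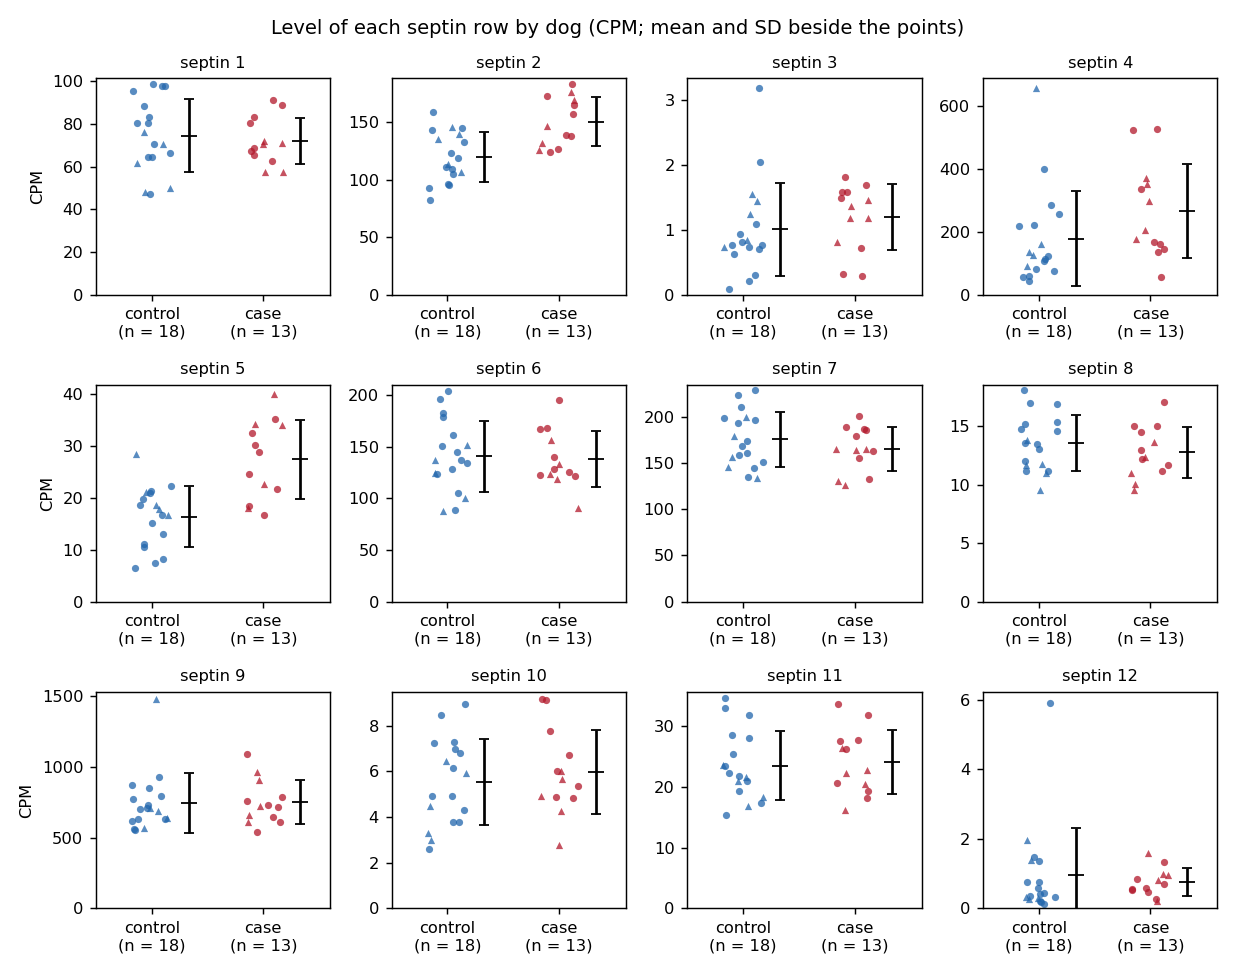
Level of each of the 12 septin rows in CPM (vertical axis, from 0, a different scale in each panel) in 18 controls (blue) and 13 HTG cases (red), with 1 point per dog, the mean and SD beside the points (the bar of septin 12 is cut off at 0), and triangles for the 10 small-RNA-high dogs. In septin 5 the cases lie between 16.7 and 40.0 CPM and the controls between 6.42 and 28.4 CPM, while in septin 7 the cases lie between 126 and 201 CPM and the controls between 134 and 229 CPM.

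Among the other 11 septins, none differed between cases and controls at an adjusted P of at most 0.05 in edgeR's quasi-likelihood test, and 1 of 11 (9.09%) had an unadjusted P under 0.05. Over all genes tested these shares were 0.0359% and 9.81%, so the septins' share at the unadjusted threshold was near that of all genes. DESeq2, which called 0.526% of the genes it tested, called 1 of the 11. In both tools that septin was septin 2.

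Septin 2, a core subunit of the septin rod that takes part in cell division, had 124, 147 and 183 CPM as its lowest, median and highest levels in the cases (151 ± 20.9, SD, n = 13). In the controls it had 82.3, 117 and 159 CPM (120 ± 21.9, SD, n = 18). Every case exceeded the median control and 5 cases exceeded the highest control, while 11 controls lay below the lowest case. The log2 fold change was 0.33 (SE 0.09), with an unadjusted P of 0.000634 and an adjusted P of 0.123 in edgeR. DESeq2 gave the same log2 fold change with an adjusted P of 0.0493, and 0.0505 with the small RNA division as a covariate. Over the other settings the adjusted P lay between 0.104 and 1.00. The log2 fold change was 0.22 (SE 0.13) among the small-RNA-high dogs, 0.38 (SE 0.11) among the small-RNA-low dogs and 0.18 (SE 0.09) in the fit with the platelet score. The difference thus crossed the threshold in 1 setting.

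Septin 4, also of the septin 2 group and known for an isoform that promotes cell death, had a coefficient of variation of 71.7% over all dogs, which only septin 12 (120%) passed. It ranged from 56.9 to 529 CPM in the cases (median 206) and from 45.4 to 657 CPM in the controls (median 125). Of the 13 cases 12 exceeded the median control, but 0 exceeded the highest control, control_03, and 2 controls lay below the lowest case. The log2 fold change of 0.58 (SE 0.34) had an unadjusted P of 0.0979 and an adjusted P of 0.610 in edgeR. It was 0.27 (SE 0.49) among the small-RNA-high dogs, 0.70 (SE 0.42) among the small-RNA-low dogs and 0.21 (SE 0.35) in the fit with the platelet score. The unadjusted P was 0.0397 in limma-voom and 0.0282 without case_01 and control_03, with adjusted P of 0.422 and 0.306. Septin 1, the remaining member of that group, had a log2 fold change of -0.05 (SE 0.10). Its median was 70.4 CPM in the cases and 73.3 CPM in the controls.

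In the septin 6 group (septins 6, 8, 10 and 11), whose members share the place next to septin 2, the log2 fold changes lay between -0.09 and 0.11. Septin 6 had a median of 129 CPM in the cases and 137 CPM in the controls and a log2 fold change of -0.03 (95% interval -0.26 to 0.19). For septin 8 the log2 fold change was -0.09 (95% interval -0.27 to 0.09). It was 0.03 for septin 11 (95% interval -0.20 to 0.26) and 0.11 for septin 10 (95% interval -0.23 to 0.45). Septin 7, the only member of its group and a part of nearly every septin rod, had a median of 165 CPM in the cases and 171 CPM in the controls. Its log2 fold change was -0.09 (95% interval -0.26 to 0.08), and its coefficient of variation over all dogs, 16.1%, was the lowest of the 12 rows.

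The septin 3 group held septin 9, which extends the rod, and septins 3 and 12, which are best known from neurons and from sperm. Septin 9 had 541 to 1090 CPM in the cases and 550 to 1480 CPM in the controls, with control_03 highest, and a log2 fold change of 0.01 (95% interval -0.23 to 0.24). Septin 3 had between 2 and 114 counts per dog and septin 12 between 2 and 125, so that single dogs weighed heavily. Control_11 had 3.18 CPM of septin 3, where the next dog had 2.04, and control_09 had 5.91 CPM of septin 12, where the next dog had 1.96. The log2 fold change of septin 12 was -0.34 (SE 0.44), and it turned to 0.14 (SE 0.36) without these 2 controls. With all dogs kept it also turned, to 0.16 (SE 0.39) in limma-voom and 0.01 (SE 0.55) in the fit with the platelet score. That of septin 3 was 0.25 (SE 0.33) with them and 0.39 (SE 0.28) without them. No direction could be given for septin 12.

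**Figure D2:**
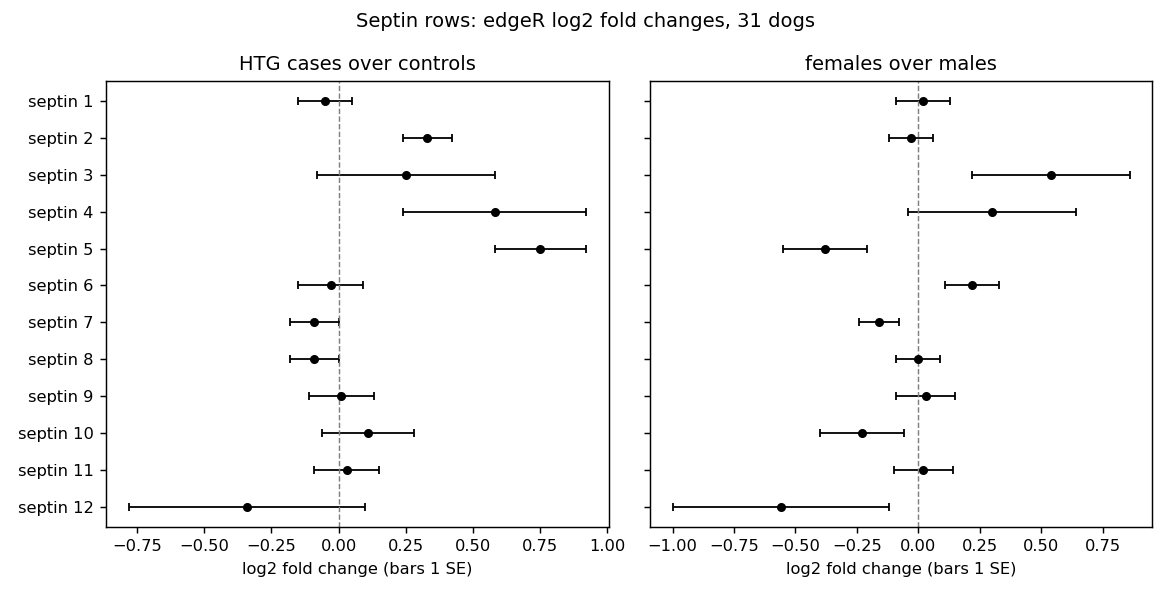
Log2 fold change (horizontal axis) of each septin row for HTG cases over controls (left) and for females over males (right) from edgeR in 31 dogs, with bars of 1 SE. Septin 5 stands highest on the left at 0.75 and septin 2 follows among the rows with short bars at 0.33, while on the right septin 5 lies at -0.38.

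The sexes were compared with group as a term in the model, a contrast that was not used to choose any septin. Septin 5 was lower in females by point estimate. Its lowest, median and highest levels were 7.45, 18.0 and 32.5 CPM in the 13 females (17.5 ± 6.76, SD) and 6.42, 21.8 and 40.0 CPM in the 18 males (23.6 ± 9.02, SD). The sexes overlapped over most of this range. The log2 fold change of females over males was -0.38 (SE 0.17), with an unadjusted P of 0.0325 and an adjusted P of 0.959 in edgeR. It was -0.42 (SE 0.19, unadjusted P = 0.0459, edgeR) within the cases and -0.34 (SE 0.25, unadjusted P = 0.178, edgeR) within the controls. The unadjusted P also rose above 0.05 with the small RNA division as a covariate (0.0590), with the dog number as a covariate (0.116) and without control_09 and control_11 (0.0669).

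Septin 6 had a median of 145 CPM in females and 129 CPM in males, with a log2 fold change of 0.22 (SE 0.11, unadjusted P = 0.0579, edgeR). It was 0.05 (SE 0.16) within the cases and 0.34 (SE 0.15) within the controls. The unadjusted P of septin 6 was 0.0452 in DESeq2, 0.0454 with RLE normalization and 0.0393 with the dog number as a covariate. In edgeR it was 0.0868 with the small RNA division as a covariate and 0.136 without control_09 and control_11. Septin 7 had a log2 fold change of -0.16 (SE 0.08, unadjusted P = 0.0534, edgeR), with an unadjusted P of 0.0213 with the small RNA division as a covariate and 0.0465 without control_09 and control_11. The unadjusted P of septin 7 was 0.0623 in DESeq2, 0.0615 with RLE normalization and 0.622 with the dog number as a covariate. None of the 12 septins passed the adjusted threshold, against 0.122% of all genes, and 1 of 12 passed the unadjusted one, against 4.89%. In the test of whether the difference between cases and controls itself differed between the sexes, 0 of 12 septins passed either threshold, where 0.0% and 3.93% of all genes did. For septin 5 this interaction was -0.08 (SE 0.34) on the log2 scale, and for septin 4, the largest, it was 0.77 (SE 0.69).

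Whole blood mixes many cell types, and in such samples fewer cells of a type and less RNA per cell cannot be told apart. The levels of the septins were therefore compared with scores of 9 sets of marker genes across the 31 dogs. A score is the mean log2 CPM of the markers, and levels and scores were centred on the mean of each group, which takes the difference between cases and controls out. Of the 108 pairs of a septin and a score, 24 had an adjusted P of at most 0.05 in a permutation test within groups, 16 with a positive and 8 with a negative correlation. These are 22.2% of the pairs, and all had an absolute r of at least 0.48. Over all tested genes, with the markers of each score left out, 11.9% of the gene and score pairs reached it, so correlation with these scores was common among genes of blood. The 8 negative calls were septins 7, 10 and 11 with the erythroid score (-0.59, -0.55 and -0.57), septins 4, 5 and 9 with the T cell score (-0.48, -0.48 and -0.54), septin 1 with the platelet score (-0.48) and septin 11 with the neutrophil score (-0.61). Centred on group and small RNA class together, septin 1 had r = -0.28 with the platelet score (adjusted permutation P = 0.369). Septins 4 and 5 each had -0.45 with the T cell score (adjusted permutation P = 0.0718 for either), so all of these calls were lost. The septin 4 call was also lost with Spearman's rho, without the 2 farthest dogs and without case_01 and control_03. Leaving out case_01 and control_03 also ended the calls of septin 1 with platelet, septin 5 with T cell, septin 7 with erythroid and septin 9 with T cell markers. Their adjusted permutation P were 0.0786, 0.108, 0.062 and 0.062. Without the 2 farthest dogs septins 5 and 7 lost these calls too (adjusted permutation P = 0.135 and 0.0501). Several septins were called with more than 1 score, and differences between scores were not tested.

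**Figure D3:**
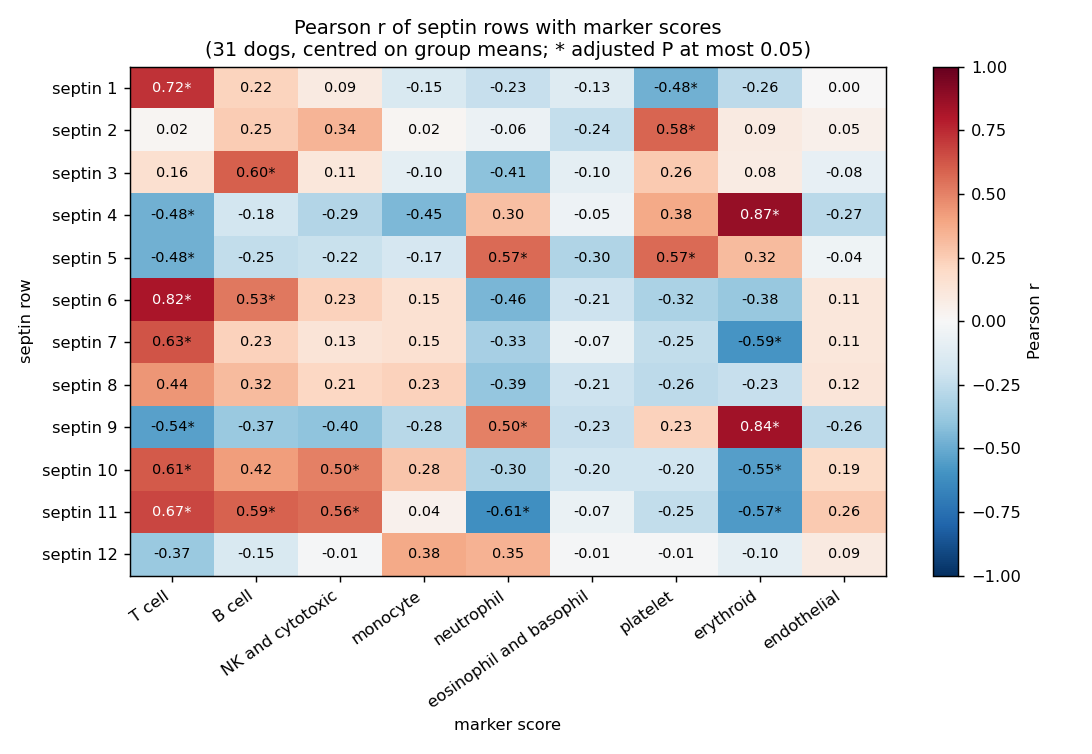
Pearson's r (colour and number) of the log2 CPM of 12 septin rows (vertical axis) with 9 marker scores (horizontal axis) over 31 dogs after centring on group means, with a star where the adjusted P was at most 0.05. Septins 1, 6, 7, 10 and 11 are starred for the T cell score with r from 0.61 to 0.82, septins 4 and 9 for the erythroid score at 0.87 and 0.84, and septins 2 and 5 for the platelet score at 0.58 and 0.57.

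Septin 5 rose and fell with the platelet score (r = 0.57, rho = 0.61, permutation P = 0.00144, adjusted P = 0.0100). Without the 2 dogs farthest from the median score r was 0.66. It was 0.62 within the cases and 0.55 within the controls, 0.85 in the small-RNA-high and 0.36 in the small-RNA-low dogs. Centred on group and small RNA class together it was 0.47, with an adjusted permutation P of 0.0622. Septin 5 also correlated with the neutrophil score (r = 0.57, rho = 0.61, permutation P = 0.00164, adjusted P = 0.0100), where r was 0.52 in small-RNA-high dogs and 0.65 in small-RNA-low dogs, and 0.56 without the 2 farthest dogs. With the T cell score r was -0.48 (rho = -0.49, permutation P = 0.00816, adjusted P = 0.0420), and without the 2 farthest dogs it was -0.41 (adjusted permutation P = 0.135). In small-RNA-high and small-RNA-low dogs that r was -0.42 and -0.47, and centred on group and small RNA class together it was -0.45 (adjusted permutation P = 0.0718).

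Septin 2 was called with 1 score, that of platelets (r = 0.58, rho = 0.59, permutation P = 0.00095, adjusted P = 0.00855). That relation had r = 0.74 within the cases, 0.51 within the controls, 0.79 in small-RNA-high dogs, 0.52 in small-RNA-low dogs and 0.54 without the 2 farthest dogs. Septin 4 followed the erythroid score more closely than any other pair (r = 0.87, rho = 0.87, permutation P = 1e-05, the smallest these permutations can give, adjusted P = 0.00027). Its r was 0.87 in either group, 0.90 in small-RNA-high dogs, 0.87 in small-RNA-low dogs and 0.83 without the 2 farthest dogs. Septin 9 did so as well (r = 0.84, rho = 0.72, adjusted permutation P = 0.00027), with 0.95 in small-RNA-high dogs, 0.77 in small-RNA-low dogs and 0.71 without the 2 farthest dogs.

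With the T cell score the highest correlation was that of septin 6 (r = 0.82, rho = 0.80, adjusted permutation P = 0.00027). It was 0.85 in small-RNA-high dogs, 0.80 in small-RNA-low dogs and 0.86 without the 2 farthest dogs. Septin 1 followed (r = 0.72, rho = 0.75, adjusted permutation P = 0.00027), with 0.58 and 0.78 in small-RNA-high and small-RNA-low dogs and 0.68 without the 2 farthest dogs. Septin 11 had 0.67 with T cell, 0.56 with NK and cytotoxic and 0.59 with B cell markers, but its r with the NK and cytotoxic score was -0.02 in small-RNA-high dogs. Within the cases its r was 0.09 with the NK and cytotoxic and 0.19 with the B cell score, and within the controls 0.78 and 0.77. Septin 3 was called with the B cell score (r = 0.60, rho = 0.49, adjusted permutation P = 0.00668), with r = 0.32 in small-RNA-high dogs, 0.80 in small-RNA-low dogs and 0.77 without the 2 farthest dogs. Septin 8 and septin 12 were called with no score, at 0.44 for septin 8 with the T cell score and 0.38 for septin 12 with the monocyte score.

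**Figure D4:**
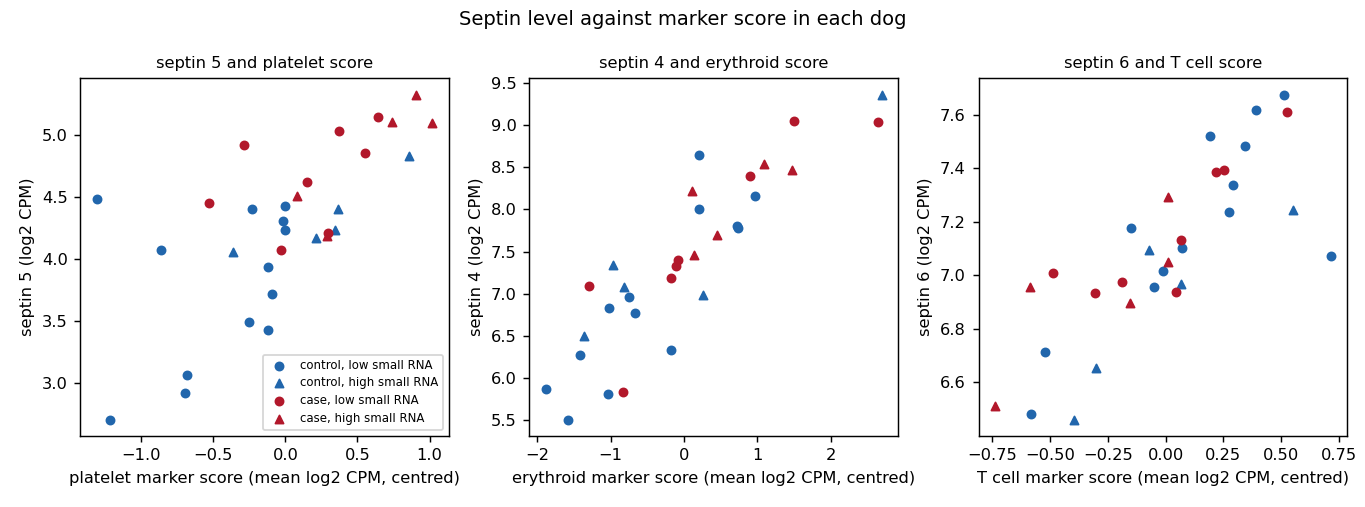
Log2 CPM of septin 5, septin 4 and septin 6 (vertical axes) against the platelet, erythroid and T cell marker scores (horizontal axes, mean log2 CPM centred over all dogs), with 1 point per dog, cases in red, controls in blue and triangles for small-RNA-high dogs. The cloud for septin 5 is the widest, with group-centred r = 0.57 against 0.87 for septin 4 and 0.82 for septin 6.

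The septins were also correlated with each other. Of their 66 pairs, 20 had an adjusted permutation P of at most 0.05, 11 with a positive and 9 with a negative r over the 31 dogs. These are 30.3% of the pairs, and all had an absolute r of at least 0.46, which 11.7% of all pairs of tested genes reached. The highest were septins 1 and 6 (r = 0.72, rho = 0.75, adjusted P = 0.00066 by permutation) and septins 7 and 10 (r = 0.68, rho = 0.63, adjusted P = 0.00066 by permutation). In small-RNA-high and small-RNA-low dogs the first pair had r = 0.51 and 0.72, and the second 0.87 and 0.53. Septins 4 and 9 rose together (r = 0.66, rho = 0.57, adjusted permutation P = 0.00132), with 0.96 in small-RNA-high dogs and 0.53 in small-RNA-low dogs. Septin 5 fell where septin 6 rose (r = -0.53, rho = -0.50, adjusted permutation P = 0.0200), with -0.70 and -0.39 in small-RNA-high and small-RNA-low dogs. With septin 2, the other row called with the platelet score at a positive r, septin 5 had r = 0.42 (rho = 0.51, adjusted permutation P = 0.0768), with 0.74 in small-RNA-high and 0.29 in small-RNA-low dogs.

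Of all 13917 other genes tested, the 10 most like septin 5 by group-centred r over the 31 dogs were GSN (0.80), CPNE2 (0.77), NDUFA8 (0.76), HSPB6 (0.75), OSER1 (0.74), THNSL1 (0.73), DYNLT1 (0.73), ACTN1, GP1BB and TMED4 (0.71 each). GSN encodes gelsolin, which severs actin filaments, and ACTN1 encodes an alpha-actinin that crosslinks them. GP1BB encodes a chain of the platelet receptor for von Willebrand factor, the GPIb-IX-V complex. The other genes of that complex in the table ranked lower, with r = 0.64 for GP9 (rank 53) and 0.64 for GP1BA (rank 55). The r of GP1BB was 0.87 in small-RNA-high and 0.60 in small-RNA-low dogs. The platelet chemokine gene PPBP had r = 0.36, with 0.89 in small-RNA-high dogs and 0.13 in small-RNA-low dogs.

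The genes most like the other septins differed from these. For septin 2 they were VASH1 (0.75), DPEP2 (0.74) and F13A1 (0.73), the last of which encodes the A chain of coagulation factor XIII. For septin 4 they were MIOX (0.96), MED12L (0.95) and FKBP8 (0.95). For septin 9 they were NDUFB11 (0.92), PPP1R11 (0.91) and GHITM (0.90). Septin 6 had DIXDC1 (0.90), RFTN1 (0.90) and ETS1 (0.89), the last a transcription factor of lymphocytes, and septin 11 had ZNF831 and PPP1R16B (0.83 each). Septin 1 had an unnamed gene, ENSCAFG00000013638 (0.82), the T cell receptor subunit gene CD3D (0.79) and FAIM (0.77). Septin 3 had BOC, SLC39A10 (0.73 each) and the class II gene DLA-DOB (0.72), and septin 7 had COPS4 (0.85), AATF (0.82) and CEP164 (0.79). For septins 8 and 10 the first named genes were RAB11FIP3 (0.69) and CAND1 (0.80), and septin 12 had IL31RA (0.76), TNIP3 (0.75) and PNKD (0.74). All of these are group-centred r over the 31 dogs.

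In human genomes SEPTIN5 and GP1BB are neighbours, and transcripts can run from the former into the latter. In the order of the RefSeq dog genes the neighbours of SEPTIN5 were TBX1 and LOC119877563 on one side and CLDN5 and CDC45 on the other, and GP1BB was listed under that symbol 0 times. That table is of the UU_Cfam_GSD assembly, not of the genome to which the reads were aligned. The library kit keeps strand, but whether the counting used it is not given in the sources used here. Whether reads of a neighbouring gene were counted on septin 5, or reads of septin 5 on GP1BB, was not tested. GP1BB itself had 37.2, 91.2 and 183 CPM as lowest, median and highest levels in the cases and 18.0, 47.5 and 93.3 CPM in the controls. Its log2 fold change was 0.99 (SE 0.25, unadjusted P = 0.000422, adjusted P = 0.113, edgeR).

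The genes that work with septins were read from lists of names. Of 12 septin partners, which include the CDC42 effectors that bind septins, anillin (ANLN) and the non-muscle myosin heavy chains, 9 passed the filter. None of these 9 had an unadjusted P under 0.05 in edgeR, where 9.81% of all genes did, 4 were higher in the cases, and their median log2 fold change was -0.04, where that of all genes was -0.02. MYH9, the non-muscle myosin of platelets, had 6250 ± 662 CPM in the cases and 6050 ± 1110 CPM in the controls (SD), a log2 fold change of 0.05 (SE 0.09).

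Of 20 genes of the platelet secretion machinery, the SNARE proteins and the factors that dock and release granules, 17 passed the filter. None passed the adjusted threshold and 2 passed the unadjusted one, both higher in the cases. That is 11.8% of the 17, near the 9.81% of all genes. They were VAMP7, a SNARE on granules, with a log2 fold change of 0.24 (SE 0.08, unadjusted P = 0.00644, edgeR), and RAB27A, a GTPase that brings granules to the membrane, with 0.25 (SE 0.09, unadjusted P = 0.00790, edgeR). The syntaxin genes, whose products septin 5 is known to bind, had log2 fold changes of 0.17 (STX2), -0.02 (STX4), -0.06 (STX7), -0.00 (STX8) and 0.09 (STX11). The median over the 17 genes was 0.05, and 11 were higher in the cases.

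All 3 genes of the GPIb-IX-V complex in the table had an unadjusted P under 0.05, where 9.81% of all genes did, and 0 passed the adjusted threshold in edgeR, with log2 fold changes of 0.99 (GP1BB), 0.80 (GP1BA) and 0.67 (GP9). Of the 10 platelet markers tested, which include the latter pair, 7 (70.0%) had an unadjusted P under 0.05, each of them higher in the cases, and the median log2 fold change of the markers was 0.59. The lists of the complex and of the platelet markers were chosen with earlier results of these data known. The study's own platelet pathways already held GP1BB. The shares of both lists are therefore a description and not a fresh test. The platelet markers' summed level was 883 to 4200 CPM in the cases (median 2400) and 615 to 4450 CPM in the controls (median 2180), a sum led by PPBP, whose own log2 fold change was 0.14 (SE 0.23). The erythroid markers, with which septins 4 and 9 moved, had a median log2 fold change of 0.64 and none of their 8 tested genes an unadjusted P under 0.05 in edgeR. Their summed level was 938 to 17900 CPM in the cases (median 3820) and 748 to 28600 CPM in the controls (median 1740). The T cell markers had a median log2 fold change of -0.19, with 1 of 10 (10.0%) at an unadjusted P under 0.05, near the share of all genes, and a summed level of 370 to 941 CPM in the cases and 419 to 1050 CPM in the controls. The neutrophil markers had a median log2 fold change of 0.20, with 1 of 6 at an unadjusted P under 0.05 and a summed level of 4740 to 8970 CPM in the cases and 3090 to 15700 CPM in the controls. The median log2 fold change was 0.23 for the B cell, 0.08 for the monocyte, 0.08 for the NK and cytotoxic, -0.03 for the eosinophil and basophil and 0.26 for the endothelial markers, of whose 8, 6, 7, 4 and 3 tested genes 1, 0, 0, 1 and 1 had an unadjusted P under 0.05 in edgeR. What part the platelet and neutrophil markers have in the level of septin 5 was not tested beyond the covariate value above.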

How the data were processed

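The authors deposited raw counts of read pairs per gene. Per the study's methods, RNA was taken from blood, ribosomal RNA was removed with a stranded total RNA kit, reads were trimmed with Trimmomatic and aligned with HISAT2 to the Dog10K_Boxer_Tasha genome, and pairs were counted where both mates mapped. The counting program, its strand setting and annotation are not given in the sources used here, and the labels call the molecule polyA RNA.

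Groups and sexes came from the labels. In R 4.3.3, edgeR 4.0.16 scaled the counts with TMM, filtered them by group with filterByExpr and fitted all genes with glmQLFit and glmQLFTest, with Benjamini-Hochberg adjustment over 13918 genes. CPM came from TMM library sizes, with a prior count of 2 on the log2 scale. The authors' batch term could not be used, because the labels do not give it. In simulated counts the test recovered 80.5% of 200 genes given a log2 fold change of 1 between cases and controls, with 7 of 168 calls false, and 86% between the sexes, with 6 of 178 false, each over 13918 genes.

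Correlations used 100000 permutations within groups, two-sided, adjusted over the 108 pairs of septins and scores or the 66 pairs of septins, computed with numpy 2.4.6, pandas 2.3.3 and scipy 1.17.1 under Python 3.11.15. Intervals of 95% were taken from the standard errors. The genes named are the septin rows, the lists of septin partners, platelet secretion, the GPIb-IX-V complex and cell markers, the neighbours of septin 5, the 10 genes most like septin 5 and the 3 most like each other septin, of which 1 is not reported here and those of septins 8 and 10 are given by their first named gene. Members and lists were chosen with earlier results of these data known. Alternatives were DESeq2 1.42.0, limma-voom 3.58.1, other normalizations, filters and prior counts, covariates (sex, platelet score, small RNA split, dog number), each group or side of the small RNA split alone, and dogs left out. Those that left out control_09 and control_11, DESeq2 with the split, and correlations by side of the small RNA split or without case_01 and control_03 were chosen after seeing the data. The shares of all genes and gene pairs that reached the weakest called correlation were added later too.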

Additional observations from a re-analysis of the deposited data

How the results depend on the processing

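Of 283 refitted septin fold changes with a test, 282 stayed on their side of the adjusted threshold of 0.05 and 1, septin 2 in DESeq2 (adjusted P = 0.0493), passed it. Leaving out log2 fold changes that rounded to 0.00, signs of fold changes that were never past the threshold turned 22 times. Of these turns 12 were between cases and controls (septins 1, 6, 9 and 12) and 10 between the sexes. Septin 8 was thus not counted between the sexes, with 0.00 in the main fit and -0.13 within the cases. Septin 12 turned in 5 settings between cases and controls, namely limma-voom, the platelet score, the dog number, the high side, and without control_09 and control_11. The count of genes called between cases and controls moved from 5 to 85 with DESeq2, 110 with DESeq2 and the small RNA split, 28 without case_01 and control_03, 3 without control_09 and control_11, 1 with at least 10 counts in every dog, and 0 with limma-voom, with the platelet score, and within the high or the low side. The count between the sexes moved from 17 to 27 with DESeq2 and to 5 within the cases or within the controls. For the interaction it was 0 in edgeR (547 at an unadjusted P under 0.05) and 0 in DESeq2 (843). Of the 108 correlations, 24 were called over all dogs, 4 within the cases, 0 within the high side of the split (10 dogs) and 12 within the low side, of which 10 were among the 24. Over 240 recomputed correlations 149 kept their call, 90 lost it with the same sign, and 1 changed sign, septin 11 with the NK and cytotoxic score on the high side (r = -0.02). The causes were not tested.

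Cases and controls share dog numbers in the labels, but same-numbered dogs did not deviate together. Over 500 genes the correlation of their deviations ran from -0.508 to 0.369, passed 0.1 in 4 of 13 pairs, and was highest with the own number in 1 of 13. With the dog number as a replicate block 0 genes were called between cases and controls and 2 between the sexes.

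Septins 3 and 12 had medians of 20 and 14 counts per dog, which limits the precision of both. Neither was tested with at least 10 counts in every dog. In the other settings septin 3 kept its sign between cases and controls, and septin 12 did not. The day numbers could not be checked against Ensembl names.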
